A study of Mus musculus with 20 samples.

Results

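Fatty acid synthesis, elongation and desaturation were followed through 10 genes, Fasn, Acaca, Acly, Scd1, Scd2, Elovl5, Elovl6, Hsd17b12, Srebf1 and Me1, chosen by name among the 56748 genes counted in the chow libraries and the 31184 counted in the high fat diet (HFD) libraries. Each name matched 1 row of each table, and all 10 passed the expression filter in every fit. The data are poly-A RNA-seq of 20 flushed mouse colon sections in 5 groups of 4, all from animals with floxed Pcca alleles and all fasted for 4 hours before death. HFD Vill animals carried Villin-Cre, which deletes Pcca in the intestinal epithelium, and HFD ff animals were floxed littermates without Cre. Both HFD groups were males on chow until 6 weeks of age and then for 12 weeks on HFD, in which fat gives 60% of the energy, and were killed at 18 weeks. Chow Vill, chow Alb and chow ff animals were killed at 9 weeks on standard chow. Chow Alb animals carried Albumin-Cre, which deletes Pcca in the liver, so their colon keeps the floxed gene as the ff colon does. Muscle, stroma and immune cells of the colon escape Villin-Cre.

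Cytosolic fatty acid synthesis starts from citrate, which Acly, ATP citrate lyase, cleaves to acetyl-CoA. Acaca, acetyl-CoA carboxylase, makes malonyl-CoA, the same carboxylation that propionyl-CoA carboxylase, the product of Pcca and Pccb, performs on propionyl-CoA. Fasn, fatty acid synthase, builds palmitate from malonyl-CoA with NADPH, part of which Me1, the cytosolic malic enzyme, supplies. Elovl6 and Elovl5 are condensing enzymes that lengthen saturated or monounsaturated and polyunsaturated acyl-CoAs, and Hsd17b12 is the 3-ketoacyl-CoA reductase of the same elongation cycle. Scd1 and Scd2 are stearoyl-CoA desaturases, which put a double bond into saturated acyl-CoAs. Srebf1 encodes the transcription factor SREBP1, known in liver to switch on most of these genes after feeding. Pcca matters to the pathway since propionyl-CoA that is not carboxylated can prime fatty acid synthase in place of acetyl-CoA.

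Between 16881567 and 24423757 reads were counted per HFD library and between 27857056 and 40385785 per chow library, and the 10 genes took 0.109 to 0.233% of the reads of a library. Diet, age and sex differ together between HFD and chow: HFD libraries held 1458 to 2756 reads of Ddx3y, on the Y chromosome, and at most 12 of Xist, and chow libraries no Ddx3y read and 22486 to 59322 of Xist. Levels set across diets are therefore a description, and the parts of diet, age and sex cannot be told apart. Pcca itself stood at 34.0, 37.3, 33.2 and 33.6 CPM (read counts scaled to a common library size) in HFD Vill colons and at 29.9, 53.7, 32.5 and 59.5 CPM in HFD ff colons, and these groups overlap. It stood at 27.7, 33.6, 29.2 and 29.5 CPM in chow Vill, at 58.3, 38.9, 41.1 and 43.6 CPM in chow Alb, and at 54.0, 39.5, 57.2 and 40.8 CPM in chow ff colons, so that every chow Vill colon lay below every other chow colon. The log2 fold change of Pcca was -0.67 in chow Vill against chow ff (edgeR, adjusted p = 1, exact permutation p = 0.0286), -0.08 in chow Alb against chow ff and -0.35 in HFD Vill against HFD ff.

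Of the 10 genes, 8 had RefSeq promoter windows (build GRCm38.p6, the 250 bases before the start), and Scd1 and Scd2 were not among them. The windows of Fasn (chr11:120824548-120824797, minus strand), Hsd17b12 (chr2:94157910-94158159, minus strand), Acly (chr11:100528001-100528250, minus strand) and Elovl6 (chr3:129532136-129532385, plus strand) are printed 5′ to 3′ on the strand of the gene. Fasn and Hsd17b12 are shown because they carried the lowest p-values of the 10 genes in chow Alb colons, and Acly and Elovl6 because they moved in opposite directions from library to library. Capitals mark matches on either strand to CCAAT (the NF-Y box), GGGCGG (the Sp1 box), CACGTG (the E-box) and TCACNCCAC (the core of a sterol regulatory element).
Fasn: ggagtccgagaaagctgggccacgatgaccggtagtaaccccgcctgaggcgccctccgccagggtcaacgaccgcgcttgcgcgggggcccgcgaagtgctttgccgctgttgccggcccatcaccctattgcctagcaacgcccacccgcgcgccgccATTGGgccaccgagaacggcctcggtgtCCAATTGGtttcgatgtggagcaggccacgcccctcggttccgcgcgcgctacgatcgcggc
Hsd17b12: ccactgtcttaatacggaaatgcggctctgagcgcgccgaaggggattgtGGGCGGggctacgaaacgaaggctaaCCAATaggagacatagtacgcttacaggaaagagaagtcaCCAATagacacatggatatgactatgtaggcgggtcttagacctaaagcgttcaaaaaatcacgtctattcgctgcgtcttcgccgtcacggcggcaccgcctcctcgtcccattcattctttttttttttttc
Acly: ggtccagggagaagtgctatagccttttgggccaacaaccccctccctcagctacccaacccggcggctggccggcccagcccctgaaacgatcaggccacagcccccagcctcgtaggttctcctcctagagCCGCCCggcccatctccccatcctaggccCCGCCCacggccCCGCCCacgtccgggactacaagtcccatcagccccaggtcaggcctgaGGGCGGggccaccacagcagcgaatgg
Elovl6: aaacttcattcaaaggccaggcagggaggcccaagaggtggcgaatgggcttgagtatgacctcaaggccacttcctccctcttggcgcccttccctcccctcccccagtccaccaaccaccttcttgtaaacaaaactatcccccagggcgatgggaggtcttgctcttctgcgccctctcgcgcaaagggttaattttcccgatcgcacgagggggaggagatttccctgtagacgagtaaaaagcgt
The Fasn window holds 3 CCAAT matches, of which the pair nearest the start overlaps on opposite strands as CCAATTGG. The Hsd17b12 window holds 2 CCAAT matches and 1 GGGCGG match, the Acly window 4 GGGCGG matches and the Elovl6 window none of the 4 motifs. The 8 genes have 11 windows in all, since some have several starts. CCAAT was in 6 of the 11 windows, GGGCGG in 5, CACGTG in 1 (Elovl5) and TCACNCCAC in 0. Counted by gene, CCAAT was found for 5 of the 8, GGGCGG for 4, CACGTG for 1 and TCACNCCAC for 0. The same motifs were in 33.8%, 32.7%, 6.02% and 1.05% of all 32817 windows of that length. No match of 1 motif overlapped a match of another in these windows.

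Scd2 was the most abundant of the 10 transcripts in both diets once levels were divided by gene length, and Acaca the least. In CPM without gene length Scd2 was still the highest, but Me1 was the lowest, at 27.6 on HFD and 40.8 on chow. Acaca, with a deposited length of 17074 bases, stood at 62.6 and 54.8 CPM. On the scale of CPM per kilobase, Scd2 averaged 152 on HFD and 101 on chow, Hsd17b12 53.5 and 38.9, and Acly 52.2 and 65.1. Elovl6 averaged 20.8 on HFD and 18.8 on chow, Fasn 16.1 and 18.9, Elovl5 15.1 and 13.6, and Srebf1 12.3 and 13.5. The lowest were Me1 at 7.17 on HFD and 10.6 on chow, Scd1 at 6.36 and 14.0, and Acaca at 3.66 and 3.21 CPM per kilobase. Scd2 alone made up 37.3 ± 8.69% of the summed level of the 10 genes (SD, n = 20 libraries, lowest 19.2%, highest 49.6%). Scd2 exceeded its nearest neighbour in the order in 8 of 8 HFD and 12 of 12 chow libraries. Neighbours in the middle of the order changed places from library to library: on HFD, Fasn exceeded Elovl5 in 5 of 8 libraries and Me1 exceeded Scd1 in 5 of 8. On chow, Fasn exceeded Elovl6 in 7 of 12, Scd1 exceeded Elovl5 in 4 of 12 and Elovl5 exceeded Srebf1 in 6 of 12. Those neighbours do not differ beyond the spread between libraries. The desaturases Scd1 to Scd4 are neighbouring, closely related genes on chromosome 19, and how reads that match several genes were counted is not given in the sources used here, so the split between Scd1 and Scd2 is uncertain.

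**Figure D1:**
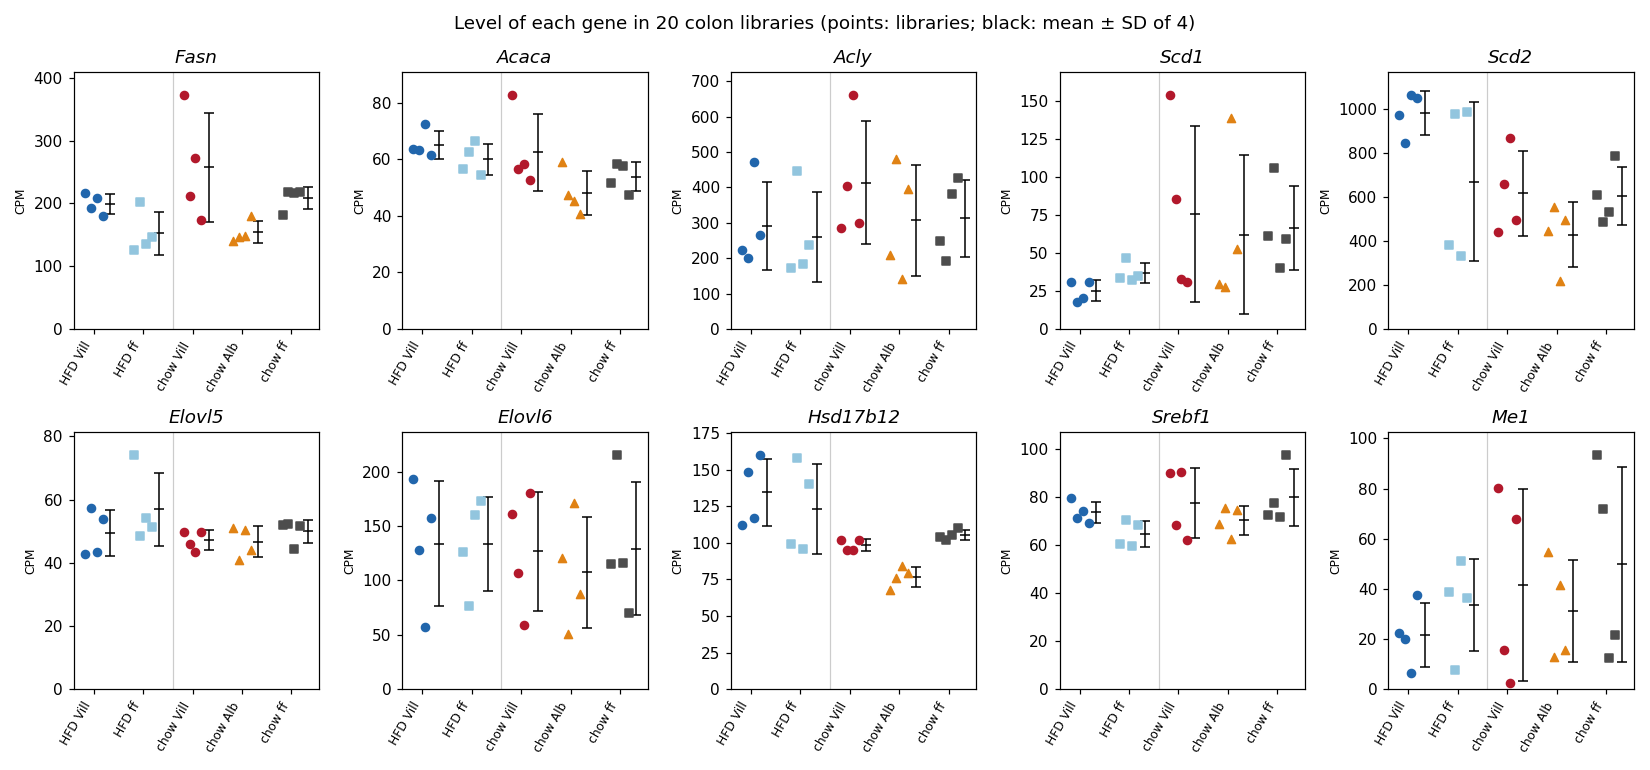
Level of each gene (CPM, linear axis from 0) in HFD Vill, HFD ff, chow Vill, chow Alb and chow ff colons; each point is 1 library and the black bar is the mean ± SD of 4. Me1, Acly, Elovl6 and Scd1 spread widely within every chow group, whereas Hsd17b12 separates chow Alb (68.1 to 84.2 CPM) from chow ff (102 to 109.9 CPM).

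The spread within groups was far from equal. Over the 12 chow libraries the highest level was 39.7 times the lowest for Me1 (2.35 to 93.2 CPM, the lowest resting on 101 reads), 5.62 times for Scd1, 4.63 times for Acly, 4.21 times for Elovl6 and 3.96 times for Scd2. It was 2.66 times for Fasn, 2.03 times for Acaca, 1.61 times for Hsd17b12, 1.57 times for Srebf1 and 1.28 times for Elovl5. Me1 was also the most variable on HFD, where it spanned 7.89 times (6.49 to 51.2 CPM). Elovl5, the elongase of polyunsaturated acyl-CoAs, was the steadiest gene on chow and not on HFD, where it spanned 1.72 times and Acaca 1.33 times.

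On chow, loss of Pcca in the intestinal epithelium was accompanied by no called change in any of the 10 genes. Here the question is how colonic transcription follows the local loss of Pcca. Of the 10 genes 0 were called (edgeR quasi-likelihood test, Benjamini-Hochberg adjusted p under 0.05), beside 0.00508% of all genes tested, and 0 had an unadjusted p under 0.05, beside 1.9% of all genes. DESeq2, which called 0.0152% of all genes, and limma-voom, which called 0.00508%, also called 0 of the 10. Fold changes lay above 0 for 5 genes, beside 50.8% of all genes, and below 0 for 5, with a median log2 of 0.0035, beside 0.0034 over all genes tested. No gene separated the groups, which happened in either direction in 1.35% of all genes.

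Fasn stood at 372, 213, 272 and 174 CPM in chow Vill colons, against 182, 219, 216 and 219 CPM in chow ff colons (means 258 ± 86.4 and 209 ± 18.0, SD, n = 4 each). A pair of Vill colons lay above every ff colon and a pair below the highest, so the groups overlap. Its log2 fold change was 0.30 (95% interval -0.13 to 0.73, adjusted p = 1), and 0.08 without chow ff 2, Vill 1 and Alb 3. Those libraries were the highest of their groups in adipocyte markers, and also in small intestine markers and the colonocyte gene Car1. Fasn had a Pearson's r of 0.09 with the summed adipocyte markers over the chow libraries. Acly stood at 286, 405, 660.0 and 299 CPM in chow Vill and at 249, 193, 382 and 425 CPM in chow ff colons (log2 0.40, interval -0.48 to 1.28, adjusted p = 1). Vill 3 was the highest of all 20 libraries for Acly, and the other Vill colons lay among the ff colons. Scd2 had a log2 fold change of 0.03 (interval -0.60 to 0.66), Srebf1 of -0.04 (interval -0.35 to 0.27) and Elovl6 of -0.02 (interval -0.97 to 0.92). The intervals of Elovl5 (-0.29 to 0.13) and Hsd17b12 (-0.26 to 0.07) were narrow, and that of Me1 (-2.24 to 1.72) was the widest of the 10.

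In chow Alb colons every one of the 10 genes averaged below chow ff, and Hsd17b12 and Fasn did not overlap with it, although edgeR called none of the 10 and DESeq2 only Hsd17b12. The comparison sets the colon of animals without hepatic Pcca beside the colon of chow ff animals. edgeR called 0 of the 10, beside 0% of all genes tested, and 2 had an unadjusted p under 0.05, beside 4.4% of all genes (867 of 19701). All 10 fold changes lay below 0, as did 49.9% of all genes, and they stayed below 0 under each of the other scalings. Their median log2 was -0.22, beside 0.00 over all genes, with a range of -0.67 to -0.03. The libraries of 2 of the 10 genes lay wholly below those of ff, beside 1.59% of all genes. These 10 values come from the same 8 libraries and are not independent of each other.

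Hsd17b12, the reductase of the elongation cycle, had the lowest p-value of all 19701 genes in this comparison. It stood at 68.1, 75.9, 84.2 and 79.3 CPM in chow Alb colons, against 104, 102, 106 and 109.9 CPM in chow ff colons and 102, 95.3, 95.3 and 102 CPM in chow Vill colons. The highest Alb colon lay below the lowest of the other 8 chow colons. Relative to ff the log2 fold change was -0.45 (SE 0.08, interval -0.62 to -0.28), which is 73.0% of the ff level (unadjusted p = 8.26e-05, edgeR adjusted p = 0.855, exact permutation p = 0.0286, the smallest that 4 against 4 allows). DESeq2 called it (log2 -0.44, adjusted p = 0.00106), the only one of the 10 among the 0.0558% of genes it called, and limma-voom did not (adjusted p = 0.863). In the authors' deposited table its log2 fold change is -0.45 (adjusted p = 0.197). The call thus depends on the tool.

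Fasn was lower too, at 140.0, 147, 148 and 179 CPM in chow Alb against 182, 219, 216 and 219 CPM in chow ff colons, with 179 and 182 CPM as the nearest values. Its log2 fold change was -0.44 (interval -0.87 to -0.01, edgeR adjusted p = 0.99, exact permutation p = 0.0286), and the authors' deposited table has -0.43 (adjusted p = 0.651). Scd2 stood at 448, 555, 220.3 and 497 CPM in chow Alb, against 609, 487, 535 and 788 CPM in chow ff colons (log2 -0.49, adjusted p = 0.99). The Alb colons covered the lower part of the range, with overlap. Srebf1, the regulator, differed less, with a log2 fold change of -0.18 (interval -0.50 to 0.13). Acaca had -0.16, Elovl5 -0.10, Scd1 -0.10, Elovl6 -0.26, Me1 -0.67 and Acly -0.03, each with an adjusted p of 0.99 or above, and Acly, Elovl6 and Scd1 changed sign when certain single libraries were left out. Summed markers of cell division (6 of 6 genes detected) ran from 164 to 305 CPM in chow Alb and from 285 to 547 CPM in chow ff colons. Whether the number of dividing cells takes part in these differences was not tested, and in whole colon tissue fewer cells of a type and less RNA per cell cannot be told apart.

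Chow Vill against chow Alb, epithelial against hepatic deletion, shares the Alb libraries with the comparison before it. Of the 10 genes 0 were called by edgeR, beside 0.00508% of all genes, and 3 had an unadjusted p under 0.05 (Fasn, Acaca and Hsd17b12), beside 8.87%. All 10 fold changes lay above 0, as did 52.8% of all genes, with a median log2 of 0.37 beside 0.02, but Elovl5 (0.02) turned below 0 with upper quartile scaling and with library totals only. Me1 turned below 0 with limma-voom (-0.48), and Srebf1 without chow ff 2, Vill 1 and Alb 3. Me1, Scd1, Elovl5 and Elovl6 also changed sign when certain single libraries were left out. Hsd17b12 separated the groups, beside 2.59% of genes higher without overlap (log2 0.36, interval 0.19 to 0.53, edgeR adjusted p = 0.401), and DESeq2 called it (adjusted p = 0.0134) among 0.457% of genes. Fasn averaged 258 ± 86.4 CPM in chow Vill and 154 ± 17.5 CPM in chow Alb colons, a log2 fold change of 0.74 (interval 0.31 to 1.17, edgeR adjusted p = 0.46, DESeq2 adjusted p = 0.0825, exact permutation p = 0.0571). The lowest Vill colon, at 174 CPM, lay below the highest Alb colon, at 179 CPM. Acaca stood at 82.6, 56.5, 58.4 and 52.5 CPM in chow Vill, against 59.2, 47.5, 45.1 and 40.7 CPM in chow Alb colons (log2 0.38, adjusted p = 0.551). Without chow Vill 1, the highest for both genes, the log2 fold change was 0.49 for Fasn and 0.19 for Acaca. The cell division sum was 349 to 507 CPM in chow Vill, above all 4 Alb colons, and its part was not tested.

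**Figure D2:**
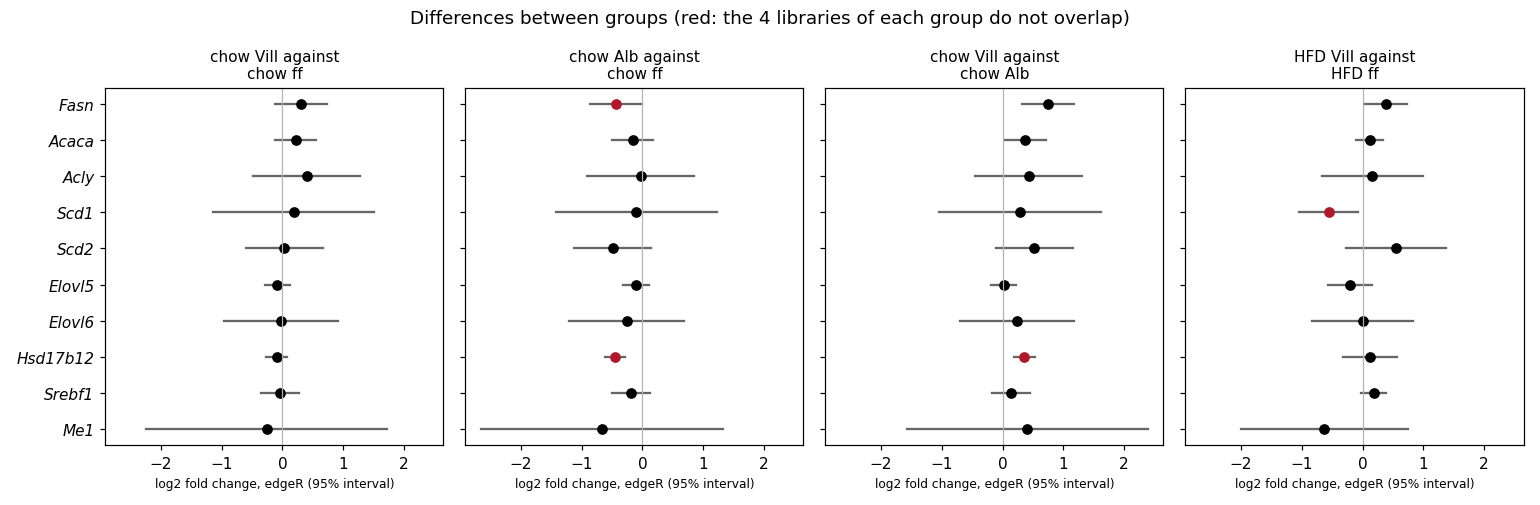
log2 fold change of each gene with its 95% interval (edgeR) in 4 comparisons, with the first-named group on top of the ratio; red points mark genes whose 4 libraries in each group do not overlap. Hsd17b12 and Fasn lie below 0 in chow Alb against chow ff, Hsd17b12 above 0 in chow Vill against chow Alb, and Scd1 below 0 in HFD Vill against HFD ff.

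On HFD, Scd1 was lower in every HFD Vill colon than in any HFD ff colon, and Fasn and Srebf1 averaged higher, again without a call. edgeR called 0 of the 10 genes, beside 0.00564% of all genes tested, and DESeq2 (0.0113% of all genes) and limma-voom (0.00564%) 0 as well. An unadjusted p under 0.05 was found for 2 of the 10, beside 3.45% of all 17715 genes. Fold changes lay above 0 for 7 genes, beside 49.3% of all genes, and below 0 for 3, with Elovl6 (log2 0.00) changing sides with the scaling, and their median log2 was 0.12, beside 0.00.

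Scd1 stood at 31.2, 17.8, 20.6 and 31.3 CPM in HFD Vill colons, against 33.6, 46.8, 32.6 and 35.2 CPM in HFD ff colons. The nearest values, 31.3 and 32.6 CPM, are close, and 0.909% of all genes were lower without overlap. The log2 fold change was -0.56 (interval -1.04 to -0.07, edgeR adjusted p = 0.932, exact permutation p = 0.0286). Scd2, its paralogue, went the other way, at 974, 847, 1064 and 1053 CPM in HFD Vill against 383, 981, 335 and 987 CPM in HFD ff colons (log2 0.55, interval -0.27 to 1.38, adjusted p = 0.932). The low ff values are those of ff 1 and 3, and without these libraries the log2 fold change of Scd2 was 0.00.

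Fasn stood at 217, 192, 208 and 180.5 CPM in HFD Vill and at 127, 202, 135 and 147 CPM in HFD ff colons (log2 0.39, interval 0.03 to 0.74, adjusted p = 0.932), and at a log2 fold change of 0.20 without ff 1 and 3. Srebf1 stood at 79.5, 71.3, 74.1 and 69.3 CPM in HFD Vill, against 60.5, 70.2, 59.5 and 68.4 CPM in HFD ff colons (log2 0.19, adjusted p = 0.932, exact permutation p = 0.0571). For both genes ff 1 and 3 were the lowest of the 8. For Srebf1, ff 2 and 4 lay near the Vill colons. For Fasn only ff 2 lay among the Vill colons, and ff 4 (147 CPM) lay below all of them. Libraries ff 1 and 3 also stood apart in tissue markers, whose part in these differences was not tested. The colonocyte gene Car1, a carbonic anhydrase, was at 5785 and 6942 CPM in them and at 266 to 1345 CPM in the other 6 HFD libraries, and the colonocyte water channel Aqp8 at 4.59 and 38.1 CPM against 134 to 568 CPM. The sum of 8 small intestine enterocyte markers was 424 and 646 CPM in them and 67.5 to 401 CPM in the others. Of its members, Sis, a disaccharidase (59.7 and 76.9 against 0.4 to 2.0 CPM), and Fabp6, an ileal bile acid binding protein (25.6 and 18.0 against 0.93 to 5.70 CPM), set them apart, and Alpi, Fabp2 and Rbp2 overlapped with the others. The summed cell division markers ran from 460 to 627 CPM in HFD Vill and from 333 to 470 CPM in HFD ff colons, lowest in ff 1 and 3, and their part was not tested. Hsd17b12 stood at 112, 148, 117 and 159.7 CPM in HFD Vill and at 99.1, 158, 95.7 and 140.2 CPM in HFD ff colons, so the groups overlap (log2 0.12, turning to -0.15 without ff 1 and 3). Me1 had a log2 fold change of -0.63 (interval -1.99 to 0.74), Elovl5 of -0.20, Acly of 0.16 and Acaca of 0.12.

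The Vill effect was not shown to differ between the diets for any of the 10 genes. In the test of the HFD effect minus the chow effect, 0 of the 10 were called, beside 0% of 19516 genes, and 0 had an unadjusted p under 0.05, beside 2.54%. The lowest p-values were those of Srebf1 (log2 difference 0.23, interval -0.16 to 0.62), Scd1 (-0.74, interval -2.05 to 0.57) and Scd2 (0.52, interval -0.46 to 1.51), each with an edgeR adjusted p of 1 in the fit of 16 libraries. Without chow Vill 1 the difference of Scd1 was -0.13, and leaving out 1 library that of Srebf1 ran from 0.13 to 0.32 and that of Scd2 from 0.29 to 0.77. The level of Scd1 spanned 31.3 to 154 CPM in chow Vill and 40.3 to 106 CPM in chow ff colons.

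Within the groups the genes did not vary alike, and Acly ran opposite to Elovl6 and Me1 across the 12 chow libraries. Correlations are between log2 CPM over libraries of 1 diet, with permutation p-values adjusted over the 45 pairs of that diet. On chow, Acly and Elovl6 had Pearson's r = -0.81 (adjusted p = 0.022) and Spearman's rho = -0.86 (adjusted p = 0.032). Without the libraries farthest from the median of Acly, Alb 3 and Vill 3, r was -0.77, and with each group centred on its mean -0.93. Acly and Me1 had r = -0.80 (adjusted p = 0.022), rho = -0.73 (adjusted p = 0.088) and r = -0.85 without the same libraries.

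Me1 stood at 80.3, 15.5, 2.35 and 67.9 CPM in chow Vill, at 54.8, 12.7, 41.7 and 15.8 CPM in chow Alb and at 93.2, 71.7, 12.4 and 21.7 CPM in chow ff colons. Elovl6 stood at 161, 107, 59.4 and 180.0 CPM in chow Vill, at 121, 51.1, 171 and 87.2 CPM in chow Alb and at 115, 215, 116 and 70.2 CPM in chow ff colons. In each group the colons highest in Me1 are thus among those lowest in Acly. The ratio of Acly to Me1, in CPM, ran from 2.68 in chow ff 1 to 281 in chow Vill 3. Me1 also went with Elovl5 (r = 0.79, adjusted p = 0.022, rho = 0.77, adjusted p = 0.061) and with Elovl6 (r = 0.76, adjusted p = 0.035, rho = 0.66, adjusted p = 0.135). Acly went with Scd2 (r = 0.81, adjusted p = 0.022, rho = 0.81, adjusted p = 0.048), but r was 0.54 without Alb 3 and Vill 3.

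On HFD, Vill 3 and ff 2 stood apart from the other 6 libraries in the same genes. Acly was at 472 and 446 CPM in these colons and at 174 to 266 CPM in the others. Me1 was at 6.49 and 7.72 CPM in them and at 20.1 to 51.2 CPM in the others, and Elovl6 at 57.5 and 76.3 CPM against 126 to 193 CPM. Since 2 libraries set this relation, no r is given for it on HFD. The 5 pairs that passed on chow had the same sign on HFD, as did 31 of all 45 pairs, and none of the 5 passed there. Each of the 5 holds Acly or Me1, so they are not independent of each other.

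Fasn followed Srebf1 most closely on HFD, with r = 0.92 (exact permutation, adjusted p = 0.0078) and rho = 0.95 (adjusted p = 0.051). It was 0.75 without ff 1 and 3, and 0.83 with the groups centred. On chow r was 0.69 (adjusted p = 0.073) and rho 0.66 (adjusted p = 0.135). It was the 1 pair of 45 that passed on HFD, and Scd1 and Scd2 showed no such relation in either diet (r = -0.15 on HFD and -0.45 on chow, adjusted p = 0.855 and 0.323).

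**Figure D3:**
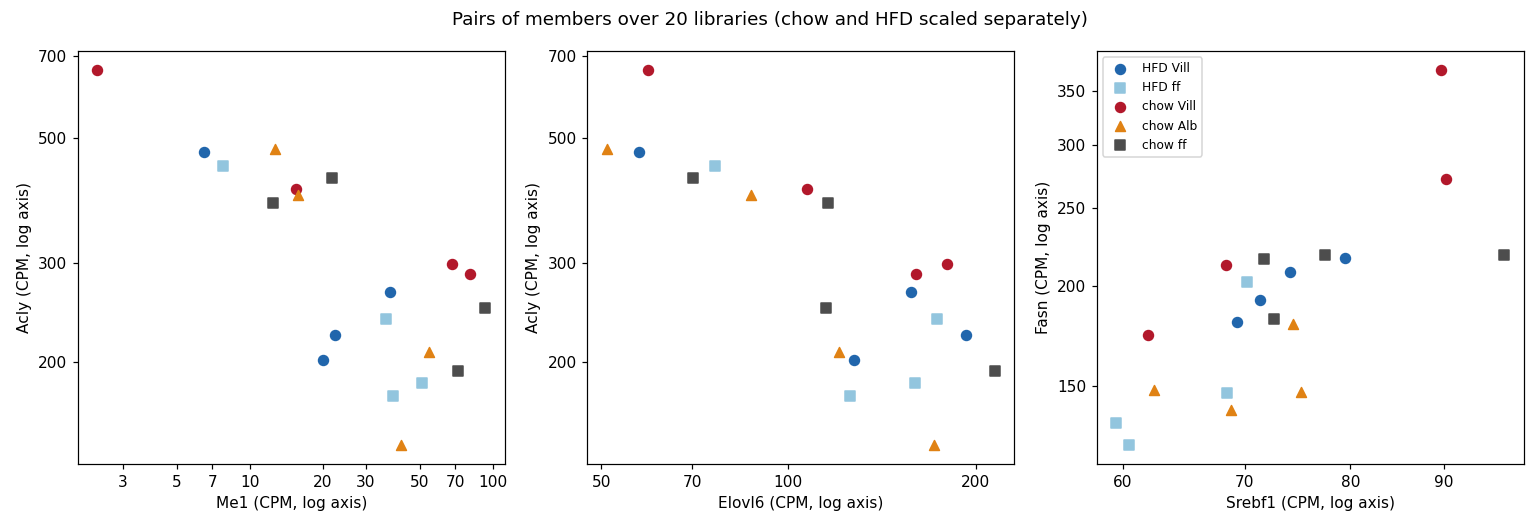
Acly against Me1, Acly against Elovl6 and Fasn against Srebf1 (CPM, log axes) in HFD Vill, HFD ff, chow Vill, chow Alb and chow ff colons, 1 point per library. On chow, libraries high in Acly, up to 660.0 CPM in chow Vill 3, are low in Me1 and Elovl6; on HFD only Vill 3 and ff 2 stand apart in this way. Fasn goes up with Srebf1 on HFD.

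Several of these genes moved with markers of the kind and place of tissue. Over the 50 relations tested per diet, between each gene and 5 marker lists (adipocyte, small intestine enterocyte, colonocyte, smooth muscle and cell division), 13 passed on chow and 2 on HFD. Elovl6 went with the summed level of 8 small intestine enterocyte markers on chow (r = 0.95, adjusted p = 0.0005, rho = 0.97, adjusted p = 0.0005, r = 0.93 without Alb 2 and Vill 3) and Acly went against it (r = -0.87, adjusted p = 0.0033, rho = -0.92, adjusted p = 0.0025, r = -0.84 without Alb 3 and Vill 3). Me1 went with it on HFD (r = 0.97, adjusted p = 0.038) and on chow (r = 0.80, adjusted p = 0.014), with rho = 0.90 and 0.68 (adjusted p = 0.114 and 0.076); r was 0.76 on HFD without Vill 3 and ff 2 and 0.86 on chow without Vill 3 and ff 1. Scd2 went against it on chow (r = -0.74, adjusted p = 0.014, rho = -0.87, adjusted p = 0.0092, r = -0.75 without Alb 3 and Vill 3). That sum ran from 31.7 to 692 CPM in chow Vill, from 49.2 to 711 CPM in chow Alb and from 53.9 to 845 CPM in chow ff colons, so it varied within each group alike. Where it is high it is mostly Fabp2, an absorptive fatty acid binding protein that the colon also makes and that stood at 8.2 to 721 CPM on chow. Alpi, an intestinal alkaline phosphatase, ran from 0.16 to 66.6 CPM on chow and was highest in the 3 chow libraries highest in Fabp2. Rbp2, a retinol binding protein, was highest in chow Alb 2 (37.0 CPM), where the sum is low, and Fabp6 reached 5.24 CPM on chow. Lct and Apoa4 were at 0.4 CPM or below in all 20 libraries, and Sis stood at 59.6 CPM in chow Vill 1, at 32.7 CPM in chow ff 2 and at most at 1.2 CPM in the other chow libraries. Acly also went against smooth muscle markers (r = -0.88, adjusted p = 0.0005, rho = -0.83, adjusted p = 0.023, r = -0.83 without Alb 3 and Vill 3), as did Scd2 (r = -0.77, adjusted p = 0.045, rho = -0.76, adjusted p = 0.046, r = -0.54 without the same libraries), and Me1 went with them (r = 0.80, adjusted p = 0.018, rho = 0.62, adjusted p = 0.114, r = 0.60 without Vill 3 and ff 1). On HFD, Hsd17b12 went against the summed colonocyte markers (exact permutation, r = -0.90, adjusted p = 0.041, rho = -0.83, adjusted p = 0.154, r = -0.73 without ff 1 and 3). That sum was highest in HFD ff 1 and 3 (6955 and 9017 CPM), where it was mostly Car1 (5785 and 6942 CPM). Other genes of the list went the other way: Slc26a3 (124 and 335 CPM), Aqp8 (4.59 and 38.1 CPM) and Slc37a2 (1.62 and 1.46 CPM) were lowest there of all HFD libraries. Car4 and Krt20 overlapped with the other HFD libraries. The labels do not say from which part of the colon each section came, and its part in these relations was not tested.

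With adipocyte markers 4 of the 10 genes passed on chow. Elovl6 went with them (r = 0.78, adjusted p = 0.017, rho = 0.74, adjusted p = 0.049, r = 0.75 without Alb 2 and Vill 3). Acly went against them (r = -0.78, adjusted p = 0.017, rho = -0.80, adjusted p = 0.023, r = -0.64 without Alb 3 and Vill 3), as did Scd2 (r = -0.70, adjusted p = 0.023, rho = -0.72, adjusted p = 0.061, r = -0.54 without the same libraries). Scd1 went with them (r = 0.76, adjusted p = 0.020, rho = 0.68, adjusted p = 0.076), and r was 0.59 without Vill 1 and Alb 3. All 8 adipocyte markers were in both tables. Their sum ran from 14.9 to 206 CPM in chow Vill, from 31.2 to 223 CPM in chow Alb and from 17.5 to 267 CPM in chow ff colons, each group having 1 colon far above the rest. Those colons, Vill 1, Alb 3 and ff 2, were also the highest of their groups for Scd1, at 154, 139 and 106 CPM. They were the highest of their groups for the small intestine sum, at 692, 711 and 845 CPM, and for Car1, at 9593, 3417 and 4890 CPM, so these markers move together. Without them the log2 fold change of Scd1 in chow Vill against chow ff was -0.11 instead of 0.19. Elovl6 was highest of its group in chow Alb 3, ff 2 and Vill 4. Adipoq, one of the adipocyte markers, was at 17.1 and 20.2 CPM in Alb 3 and ff 2. In Vill 4 Adipoq was at 0.69 CPM, and the largest part of the sum there was Cidec (15.2 CPM). On HFD, where Scd1 separated the groups, the adipocyte sum ran from 18.5 to 48.1 CPM in HFD Vill colons (median 31.7). In HFD ff colons it ran from 27.1 to 59.8 CPM (median 51.8), so the groups overlap. Most of the sum on HFD was Fabp4 (10.4 to 33.1 CPM) and Lipe (5.70 to 12.8 CPM). Of the 8 markers, 5 were at 0 reads in HFD Vill 3 and 3 in HFD Vill 4, and none in the other HFD libraries. The part of adipocyte RNA in the Scd1 difference was not tested. Fasn and Hsd17b12 went with cell division markers on chow (r = 0.78 and 0.78, adjusted p = 0.017 for each, rho = 0.78 and 0.70, adjusted p = 0.037 and 0.073). Without the 2 farthest libraries r was 0.73 for Fasn and 0.50 for Hsd17b12, and with each group centred on its mean 0.54 and 0.53.

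**Figure D4:**
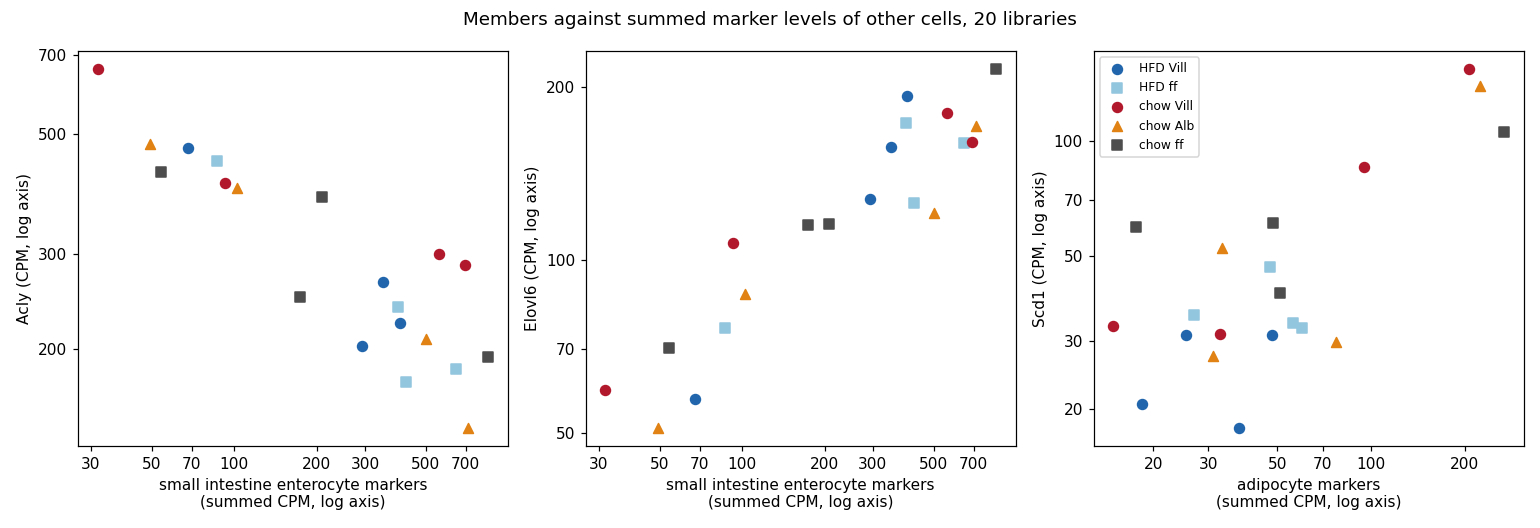
Acly and Elovl6 against the summed small intestine enterocyte markers and Scd1 against the summed adipocyte markers (CPM, log axes), 1 point per library in HFD Vill, HFD ff, chow Vill, chow Alb and chow ff colons. On chow, Acly goes down and Elovl6 up along the same axis, whereas on HFD Vill 3 and ff 2 set the slope (r without them -0.45 for Acly and 0.28 for Elovl6). The 3 chow colons above 200 CPM of adipocyte markers have Scd1 above 100 CPM.

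In the surrounding pathway, too, edgeR called no gene. Of 56 further genes in 7 lists (supply, regulators, other elongation, other desaturation, mitochondrial synthesis, activation and esterification, and sterol targets), 54 were tested on chow, 52 on HFD and 53 across diets, and edgeR called 0 in every comparison. In chow Vill against chow ff the smallest p-values were those of Acsf3, the malonyl-CoA synthetase of mitochondrial fatty acid synthesis (log2 0.28), Acsl3, an acyl-CoA synthetase (0.21), Hacd4, a 3-hydroxyacyl-CoA dehydratase family member (-0.49), Fads1, a polyunsaturated fatty acid desaturase (-0.39), and Mlxipl, the carbohydrate response factor ChREBP (0.47), each with an edgeR adjusted p of 1. On HFD they were those of Scap, the escort protein of SREBP (log2 0.17), Srebf2, the sterol-regulating relative of Srebf1 (0.25), Mlx, the partner of ChREBP (0.29), Lpin1, a phosphatidate phosphatase (-0.32), and Idh1, the NADPH-yielding cytosolic isocitrate dehydrogenase (-0.17), each with an adjusted p of 0.932. Between the diets they were those of Mlxipl (log2 difference -0.68), Acsf3 (-0.31), Mlx (0.31), Idh1 (-0.28) and the desaturase Scd4 (0.97), each with an adjusted p of 1.

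The 3 sterol targets of SREBP examined, Hmgcs1, Sqle and Idi1, averaged lower in chow Alb than in chow ff colons, and edgeR called none of them. They lay below 0 under every scaling tried, with a median log2 of -0.86, beside 0.00 over all genes tested. All 3 had an unadjusted p under 0.05, beside 4.4% of all genes. Idi1, isopentenyl diphosphate isomerase, averaged 30.1 ± 4.49 CPM in chow Alb and 57.4 ± 7.47 CPM in chow ff colons (SD, n = 4 each), without overlap. Its log2 fold change was -0.93 (edgeR adjusted p = 0.855, exact permutation p = 0.0286), and the authors' deposited table has -0.92 with an adjusted p of 0.00171, under the threshold. Hmgcs1, HMG-CoA synthase, averaged 175 ± 42.7 CPM in chow Alb and 318 ± 141 CPM in chow ff colons (log2 -0.86, adjusted p = 0.99). Sqle, squalene epoxidase (-0.68), Mlx (-0.22) and Acsl5, an acyl-CoA synthetase (-0.23), complete the 5 with the smallest p there. Against chow Alb the same 3 genes lay above 0 in chow Vill colons under every scaling tried (median log2 0.79, beside 0.02 over all genes), with the smallest p for Idi1 (log2 0.79, edgeR adjusted p = 0.391). Ndufab1, the mitochondrial acyl carrier protein (0.29), Gpam, a glycerol phosphate acyltransferase (-0.45), Mlx (0.20) and Srebf2 (0.36) followed, with adjusted p-values of 0.515 to 0.544.

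Outside the lists, the genes whose log2 CPM followed the mean standardised level of the 10 genes most closely over the 12 chow libraries, among 13947 genes, were Haspin (r = 0.96), Psme3 (0.96), Aacs (0.94), Mvd (0.94) and Mvb12a (0.91). Among the 10 genes themselves r with that mean ran from -0.02 for Acly to 0.85 for Fasn, so the mean follows Fasn, Hsd17b12 (0.77) and Acaca (0.70) more than Acly or Me1 (0.31). Over the 8 HFD libraries, among 13727 genes, they were Gm10509 (0.98), 2010003K11Rik (0.98), Dnajb1 (0.97), Bckdk (0.96) and Fbxo4 (0.96), and none of the 5 is among the 5 on chow. The correlations are descriptions picked as the highest among all these genes in the same libraries.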

How the data were processed

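The tables hold raw read counts per gene and library, per the file headers, beside the fold changes and p-values of the authors. Per the submitters' processing notes, reads were handled with HISAT2 2.0.5, featureCounts 1.5.0-p3, DESeq2 1.20.0 and edgeR 3.22.5 on mm39; the annotation release, strand setting and treatment of reads with several matches are not given in the sources used here. The 28 other per-sample columns were not used. The log2 fold changes and adjusted p-values of the authors' deposited tables are shown only beside the new tests.

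Counts were tested with edgeR 4.0.16 (TMM scaling, default expression filter, quasi-likelihood F test) under R 4.3.3, with Benjamini-Hochberg adjustment over all 19701 (chow), 17715 (HFD) and 19516 (both) genes tested and a threshold of 0.05. The 3 chow comparisons share a fit of 12 libraries and so share groups; HFD used 8 libraries and the difference between diets 16. Alternatives were limma-voom (limma 3.58.1) and DESeq2 1.42.0. Scripts were checked on simulated counts. CPM are on the TMM scale and per kilobase of the deposited gene length where genes are set beside each other. Single genes were compared by 2-sided exact permutation of 4 against 4 (70 assignments), and correlations by 100000 permutations on chow (smallest p = 1e-05) or all 40320 on HFD.

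The members, the lists, the named-gene rule and the tests were chosen with earlier results of these data known. Named are the 10 genes, Pcca, the 5 listed pathway genes with the smallest p in each comparison and the 5 unlisted genes most correlated with the members' mean per diet. Other genes named beside a list or marker sum (Sis, Alpi, Fabp2, Fabp6, Rbp2, Lct, Apoa4, Car1, Aqp8, Slc26a3, Slc37a2, Car4, Krt20, Fabp4, Lipe, Adipoq and Cidec) were chosen after their values were seen. Nothing in the labels says more of how animals were paired, and libraries with equal replicate numbers were not consistently alike, which cannot exclude pairing. P-values measure the spread between these animals only. Of the listed genes, Hsd17b8 was not analysed, and some sterol targets are not reported here and stay out of the list's counts and medians.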

Additional observations from a re-analysis of the deposited data

Results flagged for a closer look

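A library far from the other 3 of its group was looked for in 55 groups of 4 (Dixon's test at 95%), and 2 were found, where chance gives about 1 in 20. Elovl5 in chow ff colons was lowest in replicate 3, at 44.5 CPM, with the other ff colons at 51.6 to 52.2 CPM. Fasn in chow ff colons was lowest in replicate 1, at 182 CPM, with the other ff colons at 216 to 219 CPM.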

How the results depend on the processing

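Of 755 values of single members under other settings, 698 kept their direction and their side of the threshold, 2 passed it and 55 changed sign; no member that changed sign was called in either setting, and the cause was not tested. The 2 that passed are Hsd17b12 with DESeq2, so that DESeq2 called 1 member in chow Alb against chow ff and 1 in chow Vill against chow Alb, and no other alternative called any. Over all genes, DESeq2 called 3 in chow Vill against chow ff, 11 in chow Alb against chow ff, 90 in chow Vill against chow Alb and 2 in HFD Vill against HFD ff, where edgeR called 1, 0, 1 and 1. Without the expression filter 2 were called in chow Vill against chow ff, without chow ff 2, Vill 1 and Alb 3 (chosen after seeing the data) 0, and without HFD ff 1 and 3 2 in HFD Vill against HFD ff. With the replicate block 0 genes were called in chow Vill against chow ff and 0 in chow Vill against chow Alb. Deviations of libraries with the same number correlated with mixed sign (r = -0.30, -0.73, 0.42 and -0.39 for replicates 1 to 4 of chow Vill and chow ff), so no pairing by number was seen. The check rests on the 2000 most variable genes and cannot exclude a shared litter or batch.

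In chow Vill against chow ff, log2 fold changes turned with limma-voom to -0.041 for Scd1 and -0.0059 for Scd2, and without chow ff 2, Vill 1 and Alb 3 to -0.11 for Scd1 and 0.20 for Elovl6. Leaving out 1 library at a time they ran from -0.43 to 0.49 for Scd1, from -0.18 to 0.16 for Scd2, from -0.26 to 0.34 for Elovl6, from -0.81 to 0.22 for Me1 and from -0.13 to 0.0504 for Srebf1. In chow Alb against chow ff, Acly turned to 0.047 without those 3 libraries; leaving out 1 library it ran from -0.32 to 0.22, Elovl6 from -0.58 to 0.11, Scd1 from -0.87 to 0.23 and Pcca from -0.22 to 0.023. In chow Vill against chow Alb, Elovl5 turned to -0.0099 with upper quartile scaling and to -0.00814 with library totals only, Me1 to -0.48 with limma-voom and to -0.082 with the replicate block, and Srebf1 to -0.0052 without those 3 libraries. Leaving out 1 library, Elovl5 ran from -0.059 to 0.063, Elovl6 from -0.011 to 0.54, Me1 from -0.14 to 0.83 and Scd1 from -0.34 to 1.04. In HFD Vill against HFD ff, without HFD ff 1 and 3, Acly turned to -0.23 and Hsd17b12 to -0.15, and in the difference between diets Scd2 to -0.032. Elovl6 turned to -0.0040 with RLE scaling, -0.031 with upper quartile scaling, -0.061 with library totals only, -0.00418 with DESeq2, -0.072 with limma-voom and -0.0436 with the replicate block. Leaving out 1 library, Elovl6 ran from -0.23 to 0.25 and Acly from -0.18 to 0.56. The lowest count of a member in a library was 101 reads (Me1 in chow Vill 3), so the wide intervals of Me1, Scd1, Acly and Elovl6 do not rest on counts near 0.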
